A study of Mus musculus with 18 samples.

Results

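The regions described here are 372 places in the mouse genome where NFIA and NFIB summits were among the strongest in most libraries of normal progenitors and of tumors, but in few or none of the libraries of the hyperplasia stage between them. NFIA and NFIB are nuclear factor I proteins, transcription factors that drive the differentiation of neurons and glia. They were mapped by CUT&Tag, in which an antibody brings a transposase to a bound protein and the DNA cut around it is sequenced. Each deposited list gives peak summits, the 1-base positions of strongest signal, scored by the peak caller of the authors as −log10 of a p-value. In each of 18 libraries the 30000 highest-scoring summits on the 19 autosomes were kept, here called top summits. Each was widened by 100 bp on both sides, overlapping ones were merged, and regions hit by at least 3 libraries were retained, which left 41987. A region was a member if it had a top summit in at least 4 of 6 libraries of granule neuron progenitors, at least 4 of 6 tumor libraries and at most 1 of 6 hyperplasia libraries. The members, chosen by these ranks alone, made up 0.886% of all regions.

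Granule neuron progenitors (GNPs) of the cerebellum multiply after birth in response to Sonic hedgehog (SHH) and then become granule neurons. Medulloblastomas of the SHH kind arise from them, and hyperplasia is a stage in which such cells persist before a tumor is seen. NFI proteins bind as pairs to a palindrome and are known in granule neurons for setting the time at which genes of axons, dendrites and synapses are switched on. The GNPs were from postnatal day 7, the hyperplasia from postnatal day 28 and the tumors from adult mice with medulloblastoma. The series' design text names a mouse GEMM, a genetically engineered model, and its alleles, strain and sex are not given in the sources used here. All cells came from the cerebellum by Percoll gradient, with 100000 cells per library. For each stage there were 3 preparations with 1 NFIA and 1 NFIB library apiece. Whether the preparations were separate animals is not stated, and the p-values therefore cover only their spread, which may be technical. Stage and age changed together and cannot be told apart. Summits do not measure expression, so the labelled cell types were not checked against markers. Nor can fewer cells with a bound site be told apart from weaker cutting in every cell.

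The name "missing in hyperplasia" describes the top summits only. Most members still had a weaker summit in the longer lists of hyperplasia, as described below, and they are therefore called hyperplasia-low regions. Rank 1 is the highest score of a library, so that a larger rank is a weaker summit. The rule used the ranks of all 3 stages. The contrast of hyperplasia with the other stages is accordingly given as a description with no test. Tests were made of GNP against tumor, of which the rule asked the same, and of NFIA against NFIB, labels that it did not use. The hits it asked for still limit how far members can differ in both comparisons.

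Promoter sequences show what kind of DNA lies under the few hyperplasia-low summits at annotated gene starts. Of the members, 26 overlapped a promoter window of the RefSeq table (250 bases before to 50 after a gene start, GRCm38.p6, the assembly of mm10), and 16 of these overlapped a window of a protein-coding gene. In 12 the median summit lay inside the window. Capitals mark matches to the NFI core motif TTGGC, read as GCCAA on the other strand. The 5 windows shown were chosen after their values were seen, to include several matches, a single match and none. Tlx3 encodes a homeobox factor of developing excitatory neurons (chr11:33203539-33203838, minus strand). Mtnr1a encodes a melatonin receptor (chr8:45068857-45069156, plus strand) and Aptx encodes aprataxin, a DNA repair enzyme (chr4:40702867-40703166, minus strand). Rsph14 encodes a protein of motile cilia (chr10:75032504-75032803, minus strand) and Sumo3 a ubiquitin-like modifier (chr10:77606348-77606647, plus strand). Each is written 5′ to 3′ on the strand of its gene.
Tlx3: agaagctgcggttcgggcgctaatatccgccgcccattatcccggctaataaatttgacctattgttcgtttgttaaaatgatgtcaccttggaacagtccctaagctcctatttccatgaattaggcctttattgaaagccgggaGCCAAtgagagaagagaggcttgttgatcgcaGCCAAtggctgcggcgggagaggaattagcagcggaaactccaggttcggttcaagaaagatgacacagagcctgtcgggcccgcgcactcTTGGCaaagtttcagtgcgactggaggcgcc
Mtnr1a: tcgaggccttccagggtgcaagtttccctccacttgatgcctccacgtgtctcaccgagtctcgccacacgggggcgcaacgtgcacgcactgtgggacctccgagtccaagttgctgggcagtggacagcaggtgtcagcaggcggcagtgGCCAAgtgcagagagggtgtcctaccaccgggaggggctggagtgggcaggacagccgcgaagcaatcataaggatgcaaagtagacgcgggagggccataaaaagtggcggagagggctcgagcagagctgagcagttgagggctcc
Aptx: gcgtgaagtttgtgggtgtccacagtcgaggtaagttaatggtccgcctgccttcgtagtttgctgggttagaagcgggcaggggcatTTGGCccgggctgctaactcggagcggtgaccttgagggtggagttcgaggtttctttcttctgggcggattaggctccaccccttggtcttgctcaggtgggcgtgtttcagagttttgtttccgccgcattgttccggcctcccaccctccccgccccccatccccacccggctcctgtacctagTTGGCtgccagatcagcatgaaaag
Rsph14: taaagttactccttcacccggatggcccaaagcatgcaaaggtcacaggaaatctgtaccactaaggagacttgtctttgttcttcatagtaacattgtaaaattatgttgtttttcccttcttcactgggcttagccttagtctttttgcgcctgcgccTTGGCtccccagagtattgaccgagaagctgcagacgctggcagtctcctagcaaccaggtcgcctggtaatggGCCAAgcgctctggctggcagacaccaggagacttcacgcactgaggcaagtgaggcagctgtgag
Sumo3: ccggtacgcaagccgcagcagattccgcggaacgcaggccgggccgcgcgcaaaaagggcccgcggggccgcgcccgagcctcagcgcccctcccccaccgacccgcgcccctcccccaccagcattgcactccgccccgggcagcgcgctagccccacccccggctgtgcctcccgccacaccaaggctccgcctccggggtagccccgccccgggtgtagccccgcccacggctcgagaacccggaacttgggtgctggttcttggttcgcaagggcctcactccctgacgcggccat

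The Tlx3 window held 3 matches, and the nearest lay 10 bp from the median summit, which was 11 bp downstream of the start. In Aptx there were 2 matches, the nearer 17 bp from a summit at −177 bp from the gene start of the window shown. Aptx has another annotated start, from which the same summit lay 101 bp downstream. Rsph14 had 2 matches with the nearer 52 bp away, Mtnr1a had 1 match 94 bp away, and Sumo3 had none. Of the 12 windows, 11 (91.7%) held the core motif, against 46.8% of all 31223 autosomal windows of this length. Among the 2914 windows under regions hit by at least 4 GNP and 4 tumor libraries the share was 63.6%, and among 1330 under regions hit by all 18 libraries it was 66.8%. The complete palindrome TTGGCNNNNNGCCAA, which contains the core motif, occurred in 0 of the 12 and in 0.0384% of all windows. Median GC content was 59.5% in the 12 windows, 53% in all windows and 64% in those under regions of at least 4 GNP and 4 tumor libraries. A match describes these letters and does not show a bound site. With 12 windows, no test was made.

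At Tlx3 (region chr11:33203423-33203748) the ranks ran from 7583 to 32581 in GNPs, with a median of 11615. In tumors they ran from 2948 to 28239, with no summit listed in 1 library. In hyperplasia the best rank was 30108, another library had 61595 and the remaining 4 listed no summit. Sumo3 (chr10:77606165-77606852), the window without a match, had median ranks of 22824 in GNPs, 48613.5 in hyperplasia and 21038 in tumors. Its best hyperplasia rank, 15702, was ahead of all 6 GNP ranks, the best of which was 15833, so that the stages overlapped there. No member overlapped a miRNA hairpin of the RefSeq table.

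Facts of the whole series bear on these ranks. List lengths on the autosomes ran from 49166 to 374375 summits, read depth is unknown, and the lowest score in any list was 2. The NFIA library of hyperplasia replicate 2 stood apart. It had 354001 summits, 20.4% of its top summits shared the score of the last one kept, and it hit 40.7% of all regions, against 58% to 59.1% for the other 5 of its stage. For 6 of 18 libraries the title and the name of the data disagree on the target, and the titles were followed. They are the NFIB library of replicate 1 and the NFIA library of replicate 3 in every stage. By the data names, replicate 1 would be all NFIA and replicate 3 all NFIB. No pair of libraries shared more than 0.537% of top summit positions.

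**Figure D1:**
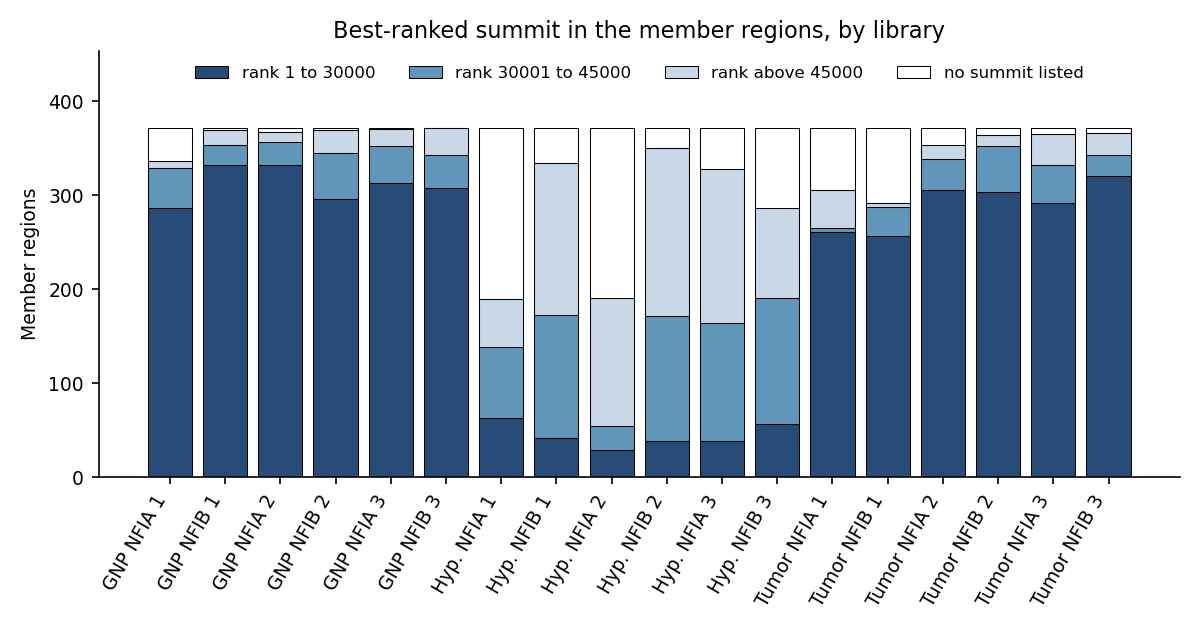
Each bar is 1 library and is divided by the rank of the best summit in each of the 372 hyperplasia-low regions: within the top 30000, beyond that but within 45000, above 45000, or not listed (y axis, number of regions). In the 6 hyperplasia libraries 29 to 63 regions had a top summit, against 286 to 332 in GNPs and 257 to 320 in tumors. In 2 of the 6 hyperplasia libraries, both NFIA (replicates 1 and 2), more of the regions were not listed than fell in the 2 middle classes.

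In hyperplasia the members were mostly listed at weaker ranks rather than absent from the lists. Of the 372 regions, 105 (28.2%) had no top summit in any hyperplasia library and 267 (71.8%) had 1. Over the whole lists, however, 313 members (84.1%) were listed by 4 or more of the 6 hyperplasia libraries, and 5 (1.34%) by 1 or none. By library, 51.1% to 94.1% of members were listed in hyperplasia, against 65.4% to 91.7% of all regions. Being listed is therefore not read as a trait of the members. The median of the members' median ranks was 18477 in GNPs, 20073 in tumors and 52860 in hyperplasia. For the 15733 regions hit by at least 4 GNP and 4 tumor libraries it was 9749, 10341 and 10387. The hyperplasia-low regions were thus also weaker than such regions in the stages in which they counted as present. This was not particular to them. With the same rule turned to the other stages, regions missing in tumors only had a median GNP rank of 20239.5. Those missing in GNPs only had a median tumor rank of 17303.5.

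The median hyperplasia rank was between 30000 and 45000 in 101 members (27.2%), between 45000 and 60000 in 143 (38.4%) and beyond 60000 in 69 (18.5%). In 59 (15.9%) at least 3 hyperplasia libraries listed no summit, so that the median was not a listed value. Within the first 45000 summits, 169 members (45.4%) had a summit in at least 3 hyperplasia libraries. Leaving out the NFIA library of replicate 2, 281 (75.5%) were listed in at least 4 of the other 5, and 156 (41.9%) were within the first 45000 in at least 3. The single top summit of the 267 members was spread over all 6 hyperplasia libraries, with 63 in the NFIA and 42 in the NFIB library of replicate 1, 29 and 38 in those of replicate 2, and 38 and 57 in those of replicate 3.

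Only summits inside a member region were compared, so its width (median 513.5 bp) bounded the distances. Between the median GNP and the median tumor summit of a member the distance was 48 bp (median of 372), and between the hyperplasia summit and those of the other stages it was 48.5 bp (median of 371). In the 15733 regions hit in GNPs and tumors the same medians were 35.5 bp and 29.5 bp. Offsets above 200 bp occurred in 4.84% of members for GNP against tumor and in 4.31% for hyperplasia. In the 15733 regions these shares were 2.88% and 2.08%. The hyperplasia summit lay within 50 bp of the others in 50.7% of members and in 69.3% of the 15733 regions. For GNP against tumor, regions missing in GNPs only had a median of 74 bp and those missing in tumors only 58 bp. Their hyperplasia medians were 44 bp and 35 bp. Wider GNP to tumor offsets than in the 15733 regions were thus not particular to the members.

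**Figure D2:**
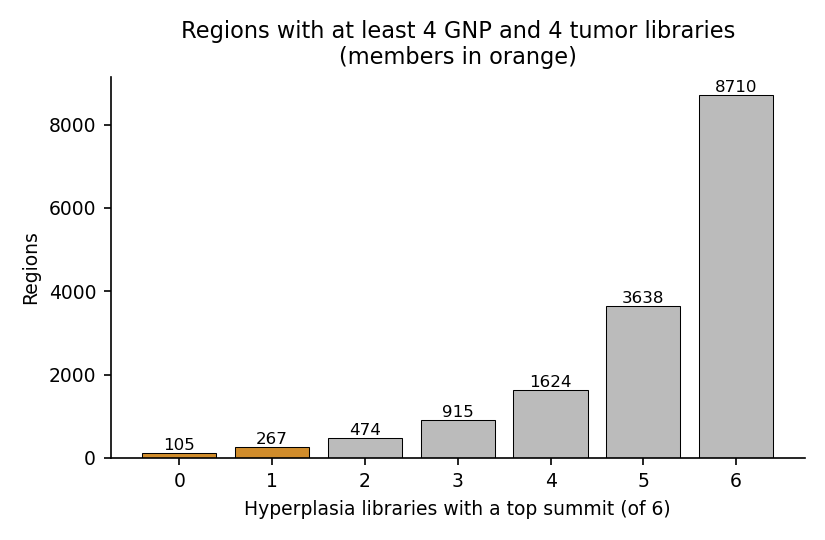
Number of regions (y axis) by the number of hyperplasia libraries with a top summit (x axis), over the 15733 regions hit by at least 4 GNP and 4 tumor libraries. The 105 and 267 members (orange) form the low end of a series that rises step by step to 8710 regions hit in all 6.

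The members were the tail of a graded series. Of the 15733 regions hit in GNPs and tumors, 8710 (55.4%) had a top summit in all 6 hyperplasia libraries, 3638 in 5, 1624 in 4, 915 in 3 and 474 in 2. Just outside the rule, the 474 regions with 2 hyperplasia libraries had a median hyperplasia rank of 40069, against 49293 for members with 1 and 72108 for members with none. Members with exactly 4 GNP libraries had a median GNP rank of 23462, and the 171 regions with 3, otherwise like members, had 30818. For tumors these values were 22794, and 31646 in 306 regions. The same rule turned to the other stages gave 759 regions missing in GNPs only (1.81%) and 367 missing in tumors only (0.874%). The number of hyperplasia-low regions was therefore close to that for tumors and below that for GNPs, and no test was made of these counts.

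Few members were strong throughout GNPs and tumors. Exactly 4 GNP libraries were hit in 121, 5 in 123 and 6 in 128. In tumors the numbers were 181, 130 and 61. All 12 GNP and tumor libraries were hit in 29 members (7.8%). In 21 members (5.65%) the best hyperplasia rank came after every GNP and tumor rank, against 0.152% of all regions, a contrast that the rule itself fixed.

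GNP and hyperplasia titles share 2 dates, while tumor titles give others, and the shift was present within both shared dates. Among libraries of the earlier date (replicates 1 and 2) 83.7% of members had a top summit in the average GNP library and 11.6% in the average hyperplasia library. For the later date (replicate 3) the values were 83.5% and 12.8%. All GNP and no hyperplasia libraries were hit in 89 members (23.9%) within the earlier date, with a background of 1.2% of all regions, and in 182 (48.9%) within the later date, with a background of 5.29%. The rule used these libraries, so that the percentages are descriptions. Whether date plays a part in the contrast of tumors with either stage cannot be told apart from the stage.

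5 regions, given here by position, had a top summit in all 12 GNP and tumor libraries and in no hyperplasia library. The first lay inside Gtf3c5, which encodes a subunit of the RNA polymerase III factor TFIIIC (chr2:28576581-28577235). Its GNP ranks were 5248 at best, 6420 in the median and 8808 at worst, and its tumor ranks 1560, 9292 and 19447. In hyperplasia the best rank was 39300, 4 further libraries listed it down to 344428 and 1 did not list it. All 6 GNP libraries sat in a narrow range, while the tumor libraries spread over a wider one.

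The region inside Slc7a5, whose product carries large neutral amino acids into cells (chr8:121889899-121890786), ranked 6979, 12647 and 23067 (lowest, median, highest) in GNPs and 10134, 17388 and 27021 in tumors. Its hyperplasia ranks began at 41831, the last listed was 87276 and 2 libraries had none. Near Sema3f, a secreted axon guidance cue, the region lay 4236 bp from the gene (chr9:107714405-107715017). It ranked 9916, 13228 and 20815 in GNPs, 2653, 10460 and 21334 in tumors, and 34948, 51011 and 66265 in hyperplasia. This was the only region of the 5 that all 6 hyperplasia libraries listed.

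Inside Pip4k2b, a lipid kinase gene (chr11:97723499-97723882), GNP ranks were 5189, 13089 and 25905, tumor ranks 4589, 9323 and 12866, and the hyperplasia ranks started at 40432, with 1 library not listing it. Inside Cyth4, which encodes an exchange factor for ARF GTPases (chr15:78616849-78617535), they were 5894, 17767 and 21764 in GNPs, 6368, 13902 and 28758 in tumors, and from 31178 on in hyperplasia, with 2 libraries not listing it. The gap between the stages was small at Cyth4, where the weakest tumor rank and the best hyperplasia rank lay on either side of 30000. Tumor and GNP values of the 5 regions did not pass the test described below (limma adjusted p from 0.453 to 0.938). Their choice by top summits in all GNP and tumor libraries limits how far these stages can differ, so no conclusion is drawn from this.

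**Figure D3:**
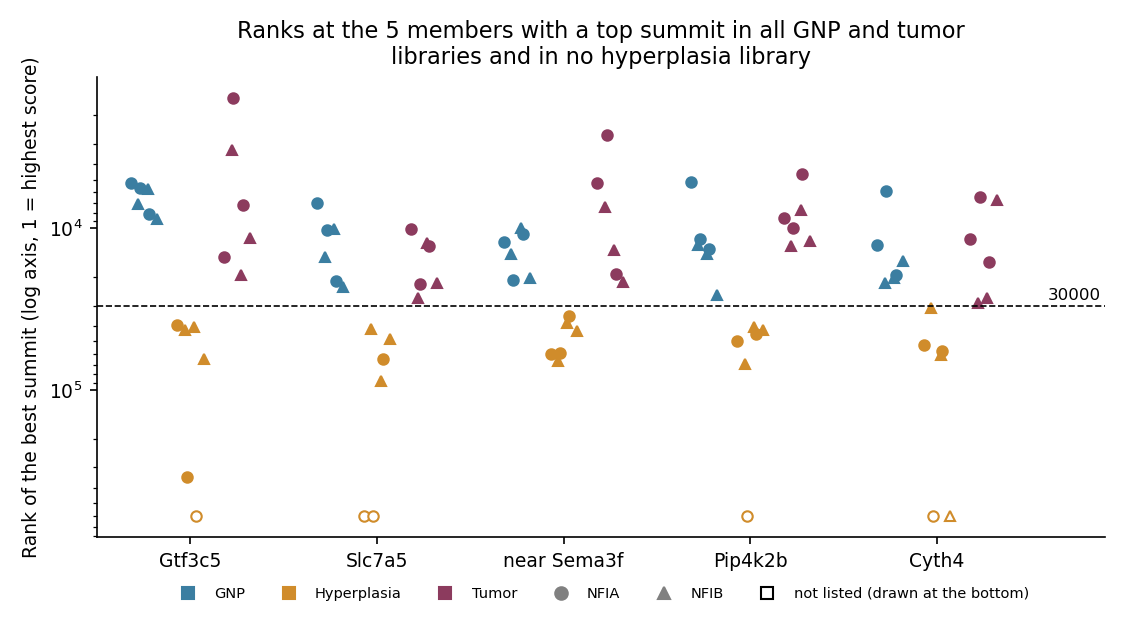
Rank of the best summit (log axis, strong summits at the top) in each of the 18 libraries at the 5 regions with all 12 GNP and tumor libraries and no hyperplasia library; circles are NFIA, triangles NFIB, open symbols libraries that list no summit. At Gtf3c5 the 6 GNP libraries lie between 5248 and 8808 and the best hyperplasia rank is 39300, whereas at Cyth4 28758 in a tumor library and 31178 in a hyperplasia library are close.

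The emptiest hyperplasia profiles belonged to other members. A region inside Msi2, which encodes an RNA-binding protein of neural stem cells (chr11:88351609-88352206), had no summit listed in any hyperplasia library. It ranked from 10230 to 28932 in the 5 GNP libraries that listed it and from 13082 to 38912 in 5 tumor libraries. Regions inside Dpysl2 (chr14:66832188-66832539), a mediator of axon growth, and Col14a1 (chr15:55310450-55311086), a collagen gene, were listed in 1 hyperplasia library, at ranks 91460 and 118039. So were those near Dtnb, a dystrobrevin gene (chr12:3787557-3787883, rank 58116), and near Gm52796 (chr5:144703956-144704353, rank 85250). At the other end, a region 10315 bp from the mannosidase gene Man2a1 (chr17:64765236-64765615) was within the first 45000 summits of all 6 hyperplasia libraries, and 17 members reached 5. Among the latter were a region inside the integrin gene Itga9 (chr9:118788984-118789500) and a region inside Dkk3 (chr7:112129811-112130484) with median ranks of 6033 in GNPs, 38403 in hyperplasia and 14321 in tumors.

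Members lay mostly away from gene ends. Of the 372, 35 (9.41%) were within 1 kb of an end of a protein-coding gene, 184 (49.5%) further inside a gene and 153 (41.1%) between genes. All regions had 22.6%, 42.1% and 35.3%, and regions hit by all 18 libraries 34.2%, 36.4% and 29.5%. Regions missing in GNPs only were like the members in this respect (6.19% near gene ends), whereas of those missing in tumors only 30.8% were near gene ends. The table used gives gene spans without exons, so exons and introns are not told apart. A region hit by all 18 libraries lay within 10 kb of 48 members (12.9%, against 8.1% of all regions). The share of regions that were members ran from 0.499% on chromosome 7 to 1.18% on chromosome 18.

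Members near gene ends were ordered by their weakest rank over the 12 GNP and tumor libraries, and the first was at Nme2, a nucleoside diphosphate kinase gene (chr11:93955068-93955608). It had a top summit in all 12 of those libraries, with median ranks of 14845 in GNPs, 9911 in tumors and 44071 in hyperplasia. Gnb3, a G protein subunit gene (chr6:124839859-124840789), had 17263, 14618 and, with 3 hyperplasia libraries not listing it, a best hyperplasia rank of 21686. Shisa2 (chr14:59625297-59625659), an inhibitor of WNT and FGF receptors, had 17992 and 16315, and 105532 in hyperplasia. A region at the ankyrin gene Ank1 (chr8:23149357-23150428) had medians of 15694, 24624 and 40981, and its best hyperplasia rank, 12603, lay within the range of both other stages. The others of the first 8 were at ends of Nat8f2, Cacna2d4, Ankdd1a and Klhl1, each with 4 or 5 hits in GNPs and in tumors.

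The members were scattered over 318 nearest genes, and 12 genes had more than 1. At these 318 genes 2192 other regions were found, and 46.7% of them had a top summit in at least 4 hyperplasia libraries, against 49.1% of the regions at genes without a member. Another region hit by at least 4 libraries of every stage was present at 237 of the 318 genes, and for 25 the member was the only region. A hyperplasia-low region was thus usually 1 of several at its gene. Over all regions, 37397 were given to 12951 genes, so several regions per gene were common. The matching shares for all genes were not computed, and this is not read as a trait of the members.

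Gli2, the main activator of SHH target genes in progenitors, had 3 members among 23 regions. The region inside the gene at chr1:119022402-119023212 was hit in 5 GNP, 1 hyperplasia and 6 tumor libraries. Its ranks were 9134, 21263 and 30534 (lowest, median, highest) in GNPs, 3017, 8009 and 21208 in tumors, and from 29418 to 73755 in hyperplasia with 1 library not listing it. Another region inside the gene (chr1:118895331-118895827) had median ranks of 26893 in GNPs, 20407 in tumors and 51153 in hyperplasia. The third lay 60965 bp away (chr1:119115111-119115630) and had 22774, 24548 and 61116. Of the other 20 regions at Gli2, 12 had a top summit in at least 4 libraries of every stage and 6 in all 18. The 2 members inside the gene lay between such regions.

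**Figure D4:**
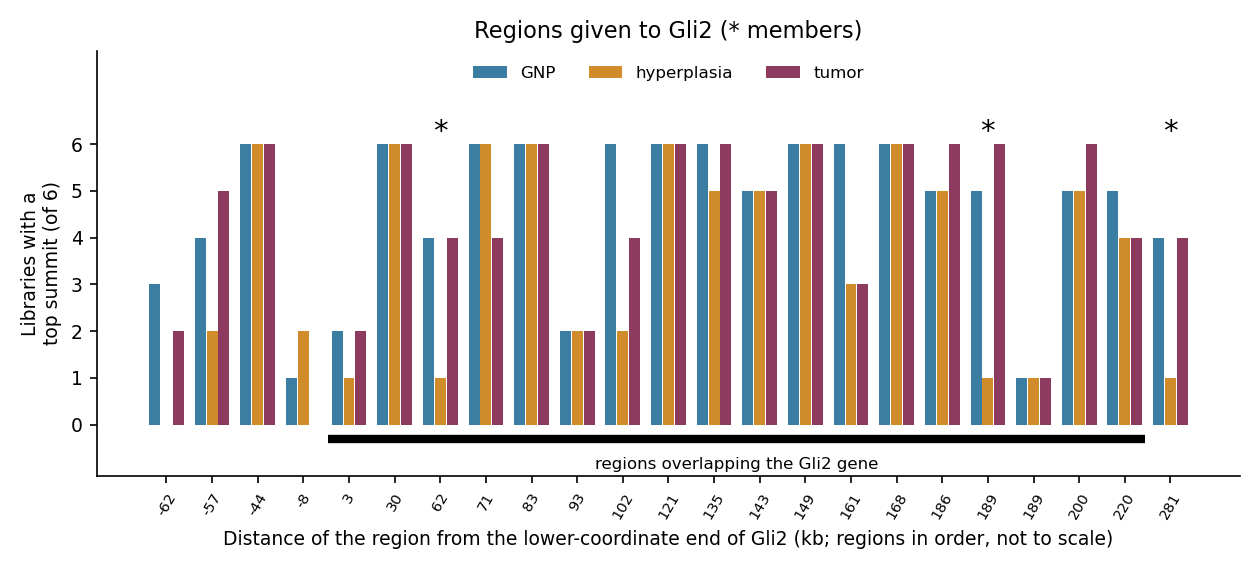
Number of libraries with a top summit in GNPs, hyperplasia and tumors (y axis, of 6) for the 23 regions nearest to Gli2, in genomic order, evenly spaced and labelled with the distance in kb from the lower-coordinate end of the gene (x axis); asterisks mark the 3 members and the black bar the regions that overlap the gene. Each member has 1 hyperplasia library, while 6 of the other regions are hit in all 18 libraries.

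Myt1l, a zinc-finger factor that represses genes of other cell types in neurons, had 3 members among 21 regions. The region at its end (chr12:29527369-29527961) was hit in 6 GNP, 1 hyperplasia and 5 tumor libraries. The regions inside the gene at chr12:29723715-29724255 and chr12:29789314-29789914 were hit in 6, 1 and 4 and in 6, 1 and 5. The last was the strongest, with median ranks of 8586 in GNPs, 11186 in tumors and 43368 in hyperplasia. Of the other 18 regions, 4 had at least 4 libraries of every stage and none had all 18. At Dkk3, a secreted protein related to WNT inhibitors, 2 of 4 regions were members.

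Other genes with 2 members each, outside chromosome 18, were Fgfr1, a fibroblast growth factor receptor, Bcl2, an inhibitor of cell death, Gfra2, a coreceptor of the growth factor neurturin, and Mtor, a growth-controlling kinase. The remaining ones were Atg7, an autophagy enzyme, H6pd, a dehydrogenase of the endoplasmic reticulum, and Ppp2r5c, a subunit of protein phosphatase 2A. At Gfra2 the member inside the gene (chr14:70919397-70920125; 6, 1 and 4 libraries in GNPs, hyperplasia and tumors) adjoined a region at chr14:70920217-70920846 with 6, 5 and 5. The lists hold 1-base summits, so a signal that differs between these regions cannot be told apart from a summit placed in the adjoining one.

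Of the gene lists used, that of the SHH pathway held 4 members among its 106 regions (3.77%), against 332 of the 37397 regions given to any gene (0.888%). The counts of all lists are descriptions, and the lists were chosen with results of these data known. Besides the 3 regions of Gli2, the SHH list held a region inside Boc, a coreceptor of SHH (chr16:44507092-44507401). Boc was hit in all 6 GNP libraries, with ranks of 5968, 12482 and 23084, and in 4 tumor libraries, from 11424 to 24615, while the other 2 listed no summit. In hyperplasia 3 libraries listed it, from 30774 to 40847. Ptch1, Smo, Gli1, Gli3 and the other genes of the list had no member.

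The list of granule progenitor identity held 2 members among 128 regions (1.56%). They were inside Zfp423, a zinc-finger gene needed for cerebellar development, and 7842 bp from Zic5 (chr14:122451038-122451599), hit in 4, 1 and 5 libraries. Neural stem and progenitor genes held 2 of 73 (2.74%): the Msi2 region and a region inside Notch1 (chr2:26500004-26500526) with median ranks of 18539 in GNPs, 52251 in hyperplasia and 23785 in tumors. Among granule neuron differentiation genes 1 of 212 regions was a member (0.472%), inside Rbfox3, which encodes the neuronal splicing factor NeuN (chr11:118583749-118584466). Its median ranks were 8893, 38410 and 11689 in GNPs, hyperplasia and tumors.

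Genes of axons, adhesion and channels held members at about the share of all regions. Axon guidance had 2 of 315 (0.635%), inside Slit3 (chr11:35663763-35664405) and 32147 bp from Plxna2. At Slit3, a secreted guidance cue, the best hyperplasia rank was 67875 and 3 libraries had none, against medians of 16544 in GNPs and 11507 in tumors. Adhesion molecules had 3 of 337 (0.89%), inside Cdh4, Ntm and Tenm4. The region inside Ntm, a neuronal surface protein of the IgLON family (chr9:29727596-29728189), had a top summit in all 12 GNP and tumor libraries, with medians of 11814 and 14373, and 3 hyperplasia libraries listed none. Ion channels and receptors had 2 of 253 (0.791%), inside Gabbr2, a GABA-B receptor subunit (chr4:46814827-46815259), and Cacna1c, a calcium channel subunit. Gabbr2 had 6, 1 and 6 libraries and medians of 10089, 42803 and 8147 in GNPs, hyperplasia and tumors.

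Of the list of medulloblastoma genes 1 of 98 regions was a member (1.02%), inside Smarca4. No member was found among 76 regions of the 4 NFI genes, 61 of cell cycle genes and 316 of chromatin and transcription regulators of the developing brain. Of the markers of other cell types, members were 0 of 37 regions of astrocytes and Bergmann glia, 0 of 39 of Purkinje cells and interneurons, 0 of 6 of microglia and 0 of 6 of non-neural tissues. Oligodendrocyte genes held 1 of 26 (3.85%), a region 32289 bp from Olig1 (chr16:91303882-91304575) with 6, 1 and 6 libraries, and vascular genes 1 of 33 (3.03%), at an end of the VEGF receptor gene Flt1 (chr5:147725281-147725745). These 2 shares are above the 0.888% of all regions given to a gene and near that of the SHH list, each from a single region. Whether other cell types differ between the stages was not tested.

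The comparison of tumors with GNPs asked whether the hyperplasia-low regions ranked alike in both stages. It used log2(45000 / best rank), set to 0 beyond rank 45000, averaged over the 2 libraries of a preparation. With limma over all 9 preparations and 41987 regions, 21 of 372 members (5.65%) passed an adjusted p of 0.05, against 7.78% of all regions. In tumors 5 members were higher (3.86% of all regions) and 16 lower (3.92%). At an unadjusted p under 0.05, 60 members and 10016 of all regions passed. The median difference of the members was −0.12, and that of all regions −0.02. The rule used the GNP and tumor ranks, asking the same of both stages, and at least 4 hits in each limit how far members can differ. The share of members called is therefore not read against that of all regions.

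The rule also keeps the hyperplasia values of members near 0, and hyperplasia enters the spread that the fit shares. Fitted on GNPs and tumors alone, 7 of the 21 members passed, all lower in tumors, with 1.74% of all regions called, and none of the 5 that were higher. In the leave-one-out fits, 8 of the 21 passed in all 9, all lower in tumors.

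**Figure D5:**
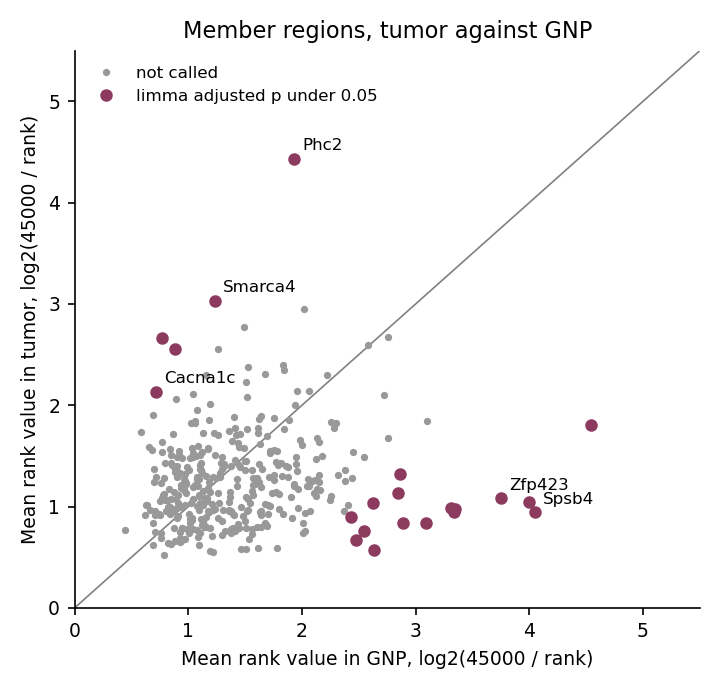
Mean rank value, log2(45000 / rank), of each member in GNPs (x axis) and tumors (y axis); the line marks equal values, and larger points passed the limma test over 9 preparations. Of the 21 called members, 16 lie below the line and 5 above it.

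Spsb4, which encodes an adaptor of a ubiquitin ligase, had the member with the lowest p (chr9:96963606-96964014, inside the gene). Its ranks were 739, 3547 and 4112 in GNPs (lowest, median, highest) and 13000, 23099 and 77004 in tumors, so that the stages did not overlap. Hyperplasia ranks began at 18446, with 2 libraries not listing it. The mean rank value was 4.05 in GNPs and 0.94 in tumors (difference −3.10, SE 0.49, limma adjusted p = 0.000141, and 0.0273 on GNPs and tumors alone).

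The region inside Zfp423 (chr8:87836978-87837265) ranked 1490, 2864 and 8526 in GNPs and 5959, 20819 and 62344 in tumors. In hyperplasia 3 libraries listed it, at 36012, 38434 and 73701. The difference between tumors and GNPs was −2.67 (SE 0.49, limma adjusted p = 0.000872, and 0.0431 on GNPs and tumors alone). A region 22164 bp from the phosphoglucomutase gene Pgm1 (chr4:100009305-100009612) differed by −2.95 (SE 0.51, limma adjusted p = 0.000406, and 0.0432). It had GNP ranks from 890 to 7224, and 4 tumor libraries listed it, from 4324 to 28204. At both, the best tumor library reached into the range of GNPs, while the tumor median was far weaker.

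Regions inside Crtac1, an extracellular matrix protein gene (chr19:42414963-42415661), and Grap, an adaptor of receptor signalling (chr11:61665847-61666325), differed by −2.33 and −2.26 (limma adjusted p = 0.00173 and 0.00186). Both passed on GNPs and tumors alone (limma adjusted p = 0.0316 and 0.0318). Their GNP ranks ran from 1548 to 8506 and from 3259 to 8531, and their tumor ranks began at 13770 and 13499, so that neither overlapped.

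The members higher in tumors were led by a region inside Phc2, which encodes a subunit of Polycomb repressive complex 1 (chr4:128698048-128698419). Its ranks were 7152, 11130 and 28580 in GNPs and 527, 2682 and 6349 in tumors, which did not overlap. The best hyperplasia rank, 6458, lay close to the weakest of the tumors. The difference was 2.51 (SE 0.57, limma adjusted p = 0.00564, and 0.0764 on GNPs and tumors alone, which does not pass).

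The region inside Smarca4, the ATPase of the SWI/SNF remodelling complex (chr9:21638998-21639439), ranked from 3264 to 13262 in tumors with a median of 4664. In GNPs it ranked from 8187 to 106984 with a median of 20048, which overlapped with tumors. In hyperplasia it ranked from 18881 to 98958. The difference was 1.80 (SE 0.48, limma adjusted p = 0.0176, and 0.0793 on GNPs and tumors alone). Cacna1c (chr6:118845934-118846372) differed by 1.42 (SE 0.44, limma adjusted p = 0.0393, and 0.094). Without chromosome 6, on which it lies, 1311 of 39490 regions were called higher in tumors, against 1621 of 41987 with it. Whether the whole chromosome plays a part in the Cacna1c difference was not tested. A region 9969 bp from Mptx1 (chr1:174320155-174320943) differed by 1.67, and a region with no gene within 100 kb (chr9:47276515-47276951) by 1.89 (limma adjusted p = 0.0264 and 0.0139). Neither passed on GNPs and tumors alone (limma adjusted p = 0.101 and 0.0608).

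Over whole libraries, a mean of 83.6% ± 0.69 of the members had a top summit in GNP preparations and 78% ± 7.22 in tumor preparations (SD, n = 3 each). In hyperplasia the mean was 12% ± 2.65 (SD, n = 3). The rule holds the first 2 shares high and the last low, so that all 3, and the difference of −5.69 percentage points between tumors and GNPs, are descriptions.

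With targets taken from the titles, no difference between NFIA and NFIB was detected at single hyperplasia-low regions. With stage as a term, limma called 0 members at an adjusted p of 0.05 over 18 libraries, against 0.00238% of all regions. At an unadjusted p under 0.05, 13 members passed, 7 higher for NFIB and 6 lower, with a background of 4.73% of all regions. The mean share of members with a top summit was 57.3% in NFIA and 58.4% in NFIB libraries, a difference of 1.02 percentage points (exact permutation within stage, two-sided p = 0.697). The numbers of hits that the rule asked for limit how far the targets can differ, at single members and in this share. No conclusion is therefore drawn from either result. In GNPs the means were 83.4% ± 6.21 and 83.9% ± 4.93, in hyperplasia 11.6% ± 4.74 and 12.3% ± 2.69, and in tumors 77% ± 6.19 and 78.9% ± 8.8 (SD, n = 3 libraries each). With the 12 libraries whose titles and data names agree on the target, no member passed either, with 0.21% of all regions called. In that fit 63 regions were higher for NFIB and 25 lower, against 0 and 1 over 18 libraries. The result over 18 libraries rests on titles that the data names contradict for 6 of them.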

How the data were processed

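NFIA and NFIB were mapped by CUT&Tag in 18 libraries. Bowtie2, MACS2 and mm10 are named, without versions, in the submitters' processing notes, and control libraries and filters are not stated there. Each deposited list holds the 1-base summits of 1 library, scored by the authors as −log10 of a p-value. Depth is unknown, so summits were compared by rank within a library, with ties ordered by chromosome and start. Groups came from the sample titles, and no per-sample column was left unmapped.

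The members and the 17 gene lists (329 genes, 321 found) were chosen with earlier results of these data known. Each region was given to the nearest of 20665 RefSeq protein-coding gene spans (GRCm38.p6) within 100 kb. Promoter windows covered 81.7% of protein-coding genes outside chromosome 18, where none was read. Ranks were tested with limma 3.58.1 (R 4.3.3; trend, empirical Bayes, Benjamini-Hochberg over all regions), with stage as the only term over 9 preparations, or stage and target over 18 libraries. The fit was checked on simulated data. Shares were compared by exact permutation with SciPy 1.17.1 (Python 3.11.15, numpy 2.4.6, pandas 2.3.3, matplotlib 3.10.9).

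Named were members hit in all GNP and tumor and no hyperplasia libraries, genes with several members, list genes, the 8 members near gene ends with the best weakest rank, up to 5 called members per direction by p, and the members most and least listed in hyperplasia. Regions on chromosome 18 are counted but not described, and 1 region named by the rule is not reported here. Alternatives were other numbers of top summits, widths, tie orders and rank limits, list length as a covariate, a replicate block, single targets, 12 libraries with agreeing names, no chromosome 6, and leaving out replicates or libraries. The fit on GNPs and tumors alone, and those without the NFIA library of hyperplasia replicate 2 with 0 of 5 hyperplasia libraries or in limma, were added after seeing the data.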

Additional observations from a re-analysis of the deposited data

Results flagged for a closer look

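In the NFIA library of GNP replicate 1, 90.3% of the members had a summit anywhere in the list, against 98.7% to 100% in the other 5 GNP libraries, which set it apart from them. Its list, with 55082 autosomal summits, was the shortest of its stage. In the NFIA library of hyperplasia replicate 2, the members that were listed had a median rank of 57961, against 39281 to 45612 in the other 5 hyperplasia libraries. That library also had the longest list of its stage. In groups of this size chance sets a library apart in about 1 of 20 groups. Several measures were searched in each stage, so flags can arise by chance. The hyperplasia library was left out on its own, and the GNP library only together with the NFIB library of its preparation.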

How the results depend on the processing

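The number of members followed how strictly the rule was set. It was 280 and 477 with the 15000 and 45000 highest summits, 345 and 375 with widening by 50 and 250 bp, 377 with ties in a random order and 372 with regions hit by at least 5 libraries. It was 35 when no hyperplasia library and at least 5 GNP and 5 tumor libraries were asked for, 773 and 628 with the NFIA or NFIB libraries alone, where each stage had 3 libraries, and 5 when the whole hyperplasia lists counted. Leaving out 1 preparation gave 325 to 931, with 931, 690 and 906 without hyperplasia replicates 1, 2 and 3, since fewer hyperplasia libraries were then asked for. Without the NFIA library of hyperplasia replicate 2 it was 457, or 135 with none of the other 5 allowed, an alternative chosen after seeing the data.

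The 21 members called in tumors against GNPs became 19 with a rank limit of 30000, 9 with all ranks and list length as a covariate, 20 without chromosome 6 and 7 on GNPs and tumors alone (added after seeing the data). They became 12 to 20 when 1 preparation was left out, with 12, 13 and 13 without GNP replicates 1, 2 and 3 and 13 without tumor replicate 3. Of all regions 1621 were higher and 1646 lower, against 838 and 785 with the rank limit and 1156 and 864 with list length, and 1.74% to 9.54% were called over all settings. No member was called for NFIB against NFIA under any setting. The difference in share between NFIB and NFIA was reversed to −1.82 with 15000 summits and −0.403 without GNP replicate 1, and ran from −0.403 to 2.35 over preparations left out (exact permutation p from 0.398 to 0.943). It was 6.81 with 45000 summits (exact permutation p = 0.135). That between tumors and GNPs ran from −7.84 to −1.52. The causes of these shifts were not tested.

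Preparations with the same number did not deviate together in every pair of stages (correlation of deviations over regions from −0.0182 to 0.2), so the numbers were not taken as a pairing. For replicates 1 and 3 these correlations ran from 0.0757 to 0.2, and for replicate 2 from −0.0182 to −0.00433. Between replicates 1 and 3 of different stages they ran from −0.195 to −0.0758. Titles and data names disagree on the target at NFIB of replicate 1 and NFIA of replicate 3 in every stage. Whether target labels play a part in these correlations was not tested. With the replicate block 22 members were called in tumors against GNPs (9.54% of all regions) and 0 for NFIB against NFIA, and the difference in share stayed 1.02 (exact permutation p = 0.668). Scores rather than reads were deposited, so differences among weak summits cannot be given a counting error.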
